A study of Mus musculus with 108 samples.

Results

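Late hemogenic endothelium (HE2) and the hematopoietic progenitors (HP) that bud from it were compared by the pieces of open chromatin that could be cloned from each. The comparison rests on 4 of the 108 samples, the plasmid lists of HE2 and of HP in the donor vector pDONR and in the reporter vector pSKB. Both stages came from HM-1 mouse embryonic stem cells differentiated in serum, with no genotype or drug treatment that set them apart. Both were sorted from the same kind of blast culture, given VEGF and IL-6, as KIT+ and CD41+ cells, and TIE2 separated them, with HE2 positive (TIE2+) and HP negative (TIE2-). Permeabilised cells were cut with the Tn5 transposase, 5 reactions per stage were pooled, and the released DNA was cloned into pDONR and from there into pSKB. Each stage is thus 1 pool of transposed cells, and pSKB is a resampling of pDONR and not a second sample. A p-value from these 4 lists compares cloned libraries and cannot speak for stages. The sorted populations are mixtures whose composition was not measured, so fewer cells with an open site and less access per cell cannot be told apart.

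Hemogenic endothelium is a transient endothelium that gives rise to the first blood cells by turning off its vascular program and turning on a hematopoietic one. The transcription factor RUNX1 drives this change. Factors of the SOX, ETS, TEAD and AP-1 families are associated with endothelial enhancers, while RUNX, GATA, ETS and E-box binding factors such as TAL1 occupy enhancers of blood progenitors. Tn5 cuts where nucleosomes and bound proteins leave DNA free, so the number of distinct fragments from a site follows how open it was. KIT and CD41 do not divide HE2 from HP here, since both were sorted as positive for them.

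The lists held 6337197 distinct fragments for HE2 and 6804490 for HP in pDONR, and 1656980 and 1293825 in pSKB, on chromosomes 1 to 19, X and Y. Their median length was 225 to 230 bp. Reads per fragment were 2.71 and 3.22 in pDONR and 14.0 and 20.2 in pSKB. The labels were checked by identical fragments. Of the pSKB fragments of HE2, 69.2% had an identical fragment in the pDONR list of HE2 and 3.35% in that of HP. Of the pSKB fragments of HP, 73.4% were found in the pDONR list of HP and 3.19% in that of HE2. Each recloned library thus matched its own stage.

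The genome was divided into bins of 500 bp, and each distinct fragment was counted once, at its midpoint. Levels are given as fragments per-million of the list (FPM). The sequences below come from bins that carry the main differences, 3 that were higher in HE2 and 4 that were higher in HP. Each is a window of 200 bases, the best covered in its bin, from the plus strand of GRCm38 (mm10). Capitals mark the letters of 6 motifs on either strand. These are TGTGGT, recognised by RUNX factors, AGATAA, recognised by GATA factors, and CCGGAA, recognised by ETS factors. The others are TGANTCA, recognised by the AP-1 dimer, GGAATGT, recognised by TEAD factors, and ACAATG, recognised by SOX factors. The window of Cdh5, the endothelial cadherin, is chr8:104095725-104095924, in an intron of an overlapping transcript, and that of S1pr1, a sphingosine phosphate receptor of endothelium, is the intergenic chr3:115709139-115709338. The window near B9d1 is intronic, chr11:61533678-61533877, and had the largest difference towards HE2 among regions of at least 5 FPM, by the smaller of the ratios in both vectors.
Cdh5: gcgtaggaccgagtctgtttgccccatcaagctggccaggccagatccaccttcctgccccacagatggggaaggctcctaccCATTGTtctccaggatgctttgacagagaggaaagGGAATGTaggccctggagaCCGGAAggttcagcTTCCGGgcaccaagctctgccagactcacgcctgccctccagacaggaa
S1pr1: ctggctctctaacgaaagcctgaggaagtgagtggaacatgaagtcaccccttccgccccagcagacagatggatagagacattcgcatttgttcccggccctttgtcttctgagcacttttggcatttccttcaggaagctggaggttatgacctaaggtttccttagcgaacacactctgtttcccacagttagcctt
B9d1: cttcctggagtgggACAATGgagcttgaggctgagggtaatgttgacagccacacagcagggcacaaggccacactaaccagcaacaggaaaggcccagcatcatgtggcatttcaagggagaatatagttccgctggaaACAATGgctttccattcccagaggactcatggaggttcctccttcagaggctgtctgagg
On the HP side are an intronic window of Runx1 at chr16:92801682-92801881, an exonic one next to Gp9, a platelet glycoprotein gene, at chr6:87776033-87776232, and intronic ones of Spns2, a transporter of sphingosine phosphate, at chr11:72482087-72482286 and of Zbtb16, the transcription factor PLZF, at chr9:48814641-48814840.
Runx1: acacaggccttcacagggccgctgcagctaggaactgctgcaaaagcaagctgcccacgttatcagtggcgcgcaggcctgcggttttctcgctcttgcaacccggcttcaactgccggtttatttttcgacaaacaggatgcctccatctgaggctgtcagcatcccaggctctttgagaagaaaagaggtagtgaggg
Gp9: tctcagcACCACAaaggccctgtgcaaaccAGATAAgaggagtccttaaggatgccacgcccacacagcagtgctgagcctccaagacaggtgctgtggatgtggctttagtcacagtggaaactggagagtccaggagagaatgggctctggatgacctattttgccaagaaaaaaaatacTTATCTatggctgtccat
Spns2: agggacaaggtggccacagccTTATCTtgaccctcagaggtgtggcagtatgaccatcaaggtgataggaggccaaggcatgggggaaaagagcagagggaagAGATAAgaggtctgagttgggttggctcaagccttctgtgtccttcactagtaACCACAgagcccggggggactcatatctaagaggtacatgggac
Zbtb16: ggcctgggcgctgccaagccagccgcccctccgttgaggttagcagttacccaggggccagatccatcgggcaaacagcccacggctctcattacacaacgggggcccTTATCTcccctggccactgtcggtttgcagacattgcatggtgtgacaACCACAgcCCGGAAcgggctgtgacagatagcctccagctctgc
The Cdh5 window held 2 ETS matches, 1 TEAD match and 1 SOX match, and that of B9d1 held 2 SOX matches. None of these 6 motifs was in the windows of S1pr1 and Runx1. In the windows of Gp9, Spns2 and Zbtb16 a RUNX match stood with 2, 2 and 1 GATA matches, and that of Zbtb16 also held 1 ETS match.

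A small part of the open genome differed between the stages, and it differed in both directions. A bin was called where the log2 ratio of HE2 to HP, with 0.5 FPM added to both, was at least 1 in size and of the same sign in both vectors. Bins needed a mean of 2 FPM over the 4 lists, which left 63153. These held 48.2% to 55.6% of the fragments of the 4 lists. Higher in HE2 were 1385 bins, 2.19% of those examined, and higher in HP were 1509 bins, 2.39%. Which side held more depended on scaling, with 1569 and 1245 bins after centring each vector's ratios on their median and 1629 and 1239 with TMM factors. The call is one of size and has no test. In pDONR alone 3.49% and 3.84% of bins reached 2-fold, in pSKB alone 10.9% and 12%, and 32 bins reached it in opposite directions. The log2 ratios of both vectors correlated over bins with r = 0.56, where 1 point is 1 bin. Most pSKB fragments are also in pDONR, and with the pSKB fragments not found there r was 0.19. The median ratio of all bins was -0.07 in pDONR and -0.03 in pSKB.

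**Figure D1:**
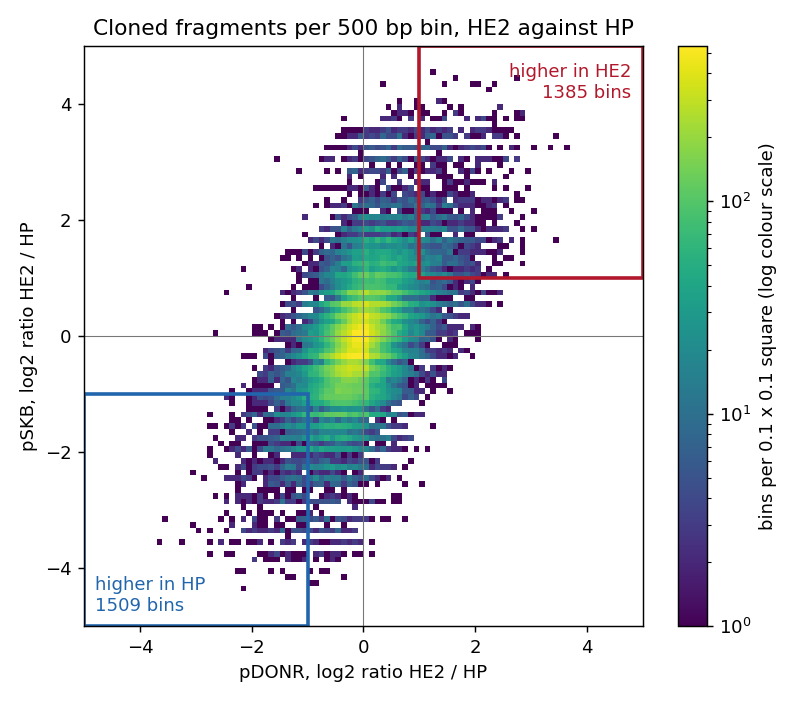
Log2 ratio of HE2 to HP in pDONR (x axis) and pSKB (y axis) for the 63153 bins, with colour for the number of bins on a log scale. Boxes hold the 1385 bins at least 2-fold higher in HE2 and the 1509 at least 2-fold higher in HP in both vectors, and the bands along the y axis come from the small whole numbers of pSKB fragments.

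EdgeR's quasi-likelihood test, with vector as a term, set the stage difference against how far the vectors disagreed on it. It found 2628 bins higher in HE2 (4.16%) and 3460 higher in HP (5.48%) at an adjusted p of 0.05. For such a call both vectors also had to go in the same direction. The edgeR calls covered 1332 of the 1385 and 1420 of the 1509 bins called by size. DESeq2 with the same terms called 7 and 12 bins and set no adjusted p for 28161. The cause of this gap was not tested. With TMM scaling the edgeR calls split the other way, with 55.7% of them on the HE2 side in place of 43.2%.

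Fragments that pSKB did not share with pDONR gave a second reading of bins chosen without them. In 2251 bins at least 2-fold higher in HE2 in pDONR alone, these other pSKB fragments numbered 5773 in HE2 and 1962 in HP. Scaled to the 509464 and 344822 such fragments of each stage, and not to the whole list, they reached a summed 11330 per-million in HE2 and 5690 in HP. They were higher in HE2 in 67.6% of the bins, and in 47.2% of all bins at the same minimum in pDONR. In 2452 bins at least 2-fold higher in HP in pDONR alone the sums on this scale were 6299 in HE2 and 13000 in HP, with HP higher in 62.2% of bins, against 46.4% of all. The direction was thus also seen in clones that had not chosen the bins, although both sets were drawn from 1 cloned pool.

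Called bins of endothelial genes were mostly higher in HE2. Of 272 bins within 100 kb of the 33 endothelial genes and nearest to their starts, 29 were higher in HE2 (10.7%, against 2.19% of all bins) and 4 in HP (1.47%, against 2.39%). The median log2 ratio of the list was 0.34 in pDONR and 0.33 in pSKB. The shares of all bins set beside this and later lists include promoter bins, which were rarely called. Of distal bins, more than 1.5 kb from any annotated start, 4.4% were higher in HE2 and 4.6% in HP. The lists were not matched for place. The 29 bins belonged to 15 genes. In the intronic bin of Cdh5 at -5.88 kb from the start, whose sequence is given above, the level was 8.52 FPM in HE2 pDONR, 6.64 in HE2 pSKB, 0.882 in HP pDONR and 0.773 in HP pSKB. These stood for 54, 11, 6 and 1 fragments. Both HE2 lists were far above both HP lists, with a ratio of 9.66 in pDONR (95% interval 4.16 to 27.5, exact, counting error only) and 8.59 in pSKB (1.25 to 370.0).

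Egfl7, which encodes a factor secreted by endothelium, had the most such bins. Of its 33 bins 7 were higher in HE2 and none in HP. At 4.32 kb downstream of the nearest of its starts the level was 10.3 in HE2 pDONR and 7.85 in HE2 pSKB, and 1.47 and 1.55 in HP. At -4.81 kb from another of its starts it was 14.2 and 19.9 in HE2 and 5.88 and 3.87 in HP. Tie1, a receptor tyrosine kinase of endothelium, had 17.2 and 17.5 FPM at its start in HE2 against 6.91 and 6.96 in HP, and in both vectors the stages were well apart. Kdr, the VEGF receptor FLK1, had 3 bins higher in HE2, of which the one at 15.7 kb had 8.99 and 7.24 in HE2 against 3.67 and 1.55 in HP. Eng, endoglin, had 3 as well, and its bin at -8.35 kb had 15.2 and 18.1 in HE2 against 7.05 and 5.41 in HP. In Eng at 15.1 kb no pSKB fragment of HP was found, against 8 of HE2. The exact interval of the pSKB ratio there, for counting error only, began at 1.33. S1pr1 had 11.2 and 9.66 in HE2 against 1.47 and 2.32 in HP at 5.82 kb.

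Among the transcription factors of endothelium, the intronic bin of Erg at 20.0 kb had 13.9 and 14.5 in HE2 against 5.59 and 2.32 in HP. Ets1 had 12.9 and 14.5 in HE2 against 5.73 and 6.96 in HP at 19.9 kb. No bin of Sox7, Sox17, Tal1 or Mecom was called. The Mecom bins did not include the distal enhancer that the paper deleted. The 4 endothelial bins higher in HP lay near Erg, Esam, Fli1 and S1pr1, each of which also had a bin higher in HE2. The one at -10.3 kb from Esam, an adhesion molecule of endothelium and platelets, had 10.3 and 6.96 in HP against 2.05 and 0.603 in HE2, with the opposite order 0.672 kb inside the gene (1.03 and 1.55 in HP against 3.79 and 4.22 in HE2).

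Notch signalling specifies arterial and hemogenic endothelium. Of 110 bins of 12 Notch pathway genes 7 were higher in HE2 (6.36%, against 2.19% of all bins) and 3 in HP (2.73%, against 2.39%). Among all distal bins 4.4% were higher in HE2, and this list was not matched for place either. With all lists drawn down to the smallest total the Notch pathway counts were 8 and 7. The list's median log2 ratio was 0.08 in pDONR and 0.12 in pSKB. Notch1, the receptor, held 4 of the 7 and 1 of the 3. Its intronic bin at 28.6 kb had 15.5 and 16.3 in HE2 against 5.73 and 3.09 in HP. Hes1, a target gene that represses transcription, went the other way at -30.1 kb, with 0.316 and 0.603 in HE2 against 3.38 and 6.18 in HP. No bin of the ligand Dll4 was called.

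Few bins of blood transcription factor genes were called, and most of those were higher in HP. Of 318 bins of 25 genes 299 were not called. Higher in HP were 14 (4.40%, against 2.39% of all bins) and higher in HE2 were 5 (1.57%, against 2.19%). The HP share was near the 4.6% of all distal bins, and the list was not matched for place. Median log2 ratios were -0.18 in pDONR and -0.12 in pSKB. The 14 bins belonged to 7 genes and the 5 to 5 others. Runx1 held 3 of the 14, among 31 bins. The intronic bin at 24.4 kb had 14.4 FPM in HP pDONR, 16.2 in HP pSKB, 6.0 in HE2 pDONR and 6.04 in HE2 pSKB. Both HP lists were above both HE2 lists, with a ratio of 2.40 in pDONR (95% interval 1.64 to 3.59) and 2.69 in pSKB (1.21 to 6.40). The levels in HE1, the earlier hemogenic endothelium, were 1.59 and 1.16. This bin was thus partly open in HE2 and most open in HP. Over all named bins the pDONR interval was above 1 in 71 of 71 higher in HE2 and 62 of 62 higher in HP, but the pSKB interval in only 36 and 26. All named bins were chosen by these same counts, which by itself favours intervals above 1. The intervals therefore show counting error and are no test of a difference.

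Runx3, a relative of Runx1, had 4 bins higher in HP. The bin over a start of the gene had 6.91 and 7.73 in HP against 2.21 and 2.41 in HE2. Cbfa2t3, a corepressor that works with TAL1 and GATA1, had 6.32 and 6.96 in HP against 1.10 and 1.81 in HE2 at -7.58 kb. Ikzf1, the lymphoid and myeloid regulator Ikaros, had 8.08 and 7.73 in HP against 2.52 and 3.02 in HE2 at 42.8 kb. Gata1, which directs erythroid and megakaryocytic differentiation, had 2 bins higher in HP, and its cofactor gene Zfpm1 had 2 as well. Gfi1b, a repressor of the endothelial program, had 1. The 5 bins higher in HE2 lay near Gata2, Hhex, Irf8, Meis1 and Mitf, of which Hhex, a gene of both endothelium and blood, had 6.31 and 7.24 in HE2 against 1.76 and 0.773 in HP. At Spi1, which encodes PU.1, neither of 2 bins was called, by size or by edgeR. These lay 0.654 and 5.65 kb downstream of the nearest start, and the upstream enhancer that the paper describes was not among them. Near the start pDONR held 9.85 FPM in HP against 4.73 in HE2, while pSKB held 7.73 in HP and 7.85 in HE2. The adjusted p of edgeR's quasi-likelihood test was 0.0277 there, but the vectors went in opposite directions.

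Called bins of erythroid and megakaryocyte genes were mostly higher in HP too. Of 49 bins of erythroid genes 8 were higher in HP (16.3%, against 2.39% of all bins) and none in HE2, and the median log2 ratio was -0.49 in pDONR and -0.52 in pSKB. The count on the HP side was 4 with fragments of at least 2 reads, 5 with all lists drawn down to the smallest total (with 1 in HE2) and 2 of 20 at a minimum of 5 FPM. These 8 include the 2 bins of Gata1. Alas2, an enzyme of heme synthesis, had 7.64 and 9.28 FPM in HP against 2.37 and 1.81 in HE2. Single bins near the embryonic globin genes Hba-x and Hbb-y were higher in HP, and so was one near Slc4a1, the anion exchanger of red cells. Of 54 bins of megakaryocyte genes 5 were higher in HP (9.26%, against 2.39% of all bins) and 1 in HE2 (1.85%, against 2.19%). Their median log2 ratios were -0.23 and -0.30. With fragments of at least 2 reads 3 were higher in HP, and at 5 FPM 2. Gp9 had 9.99 and 11.6 in HP against 0.789 and 1.81 in HE2, the largest difference of any bin on these lists that was higher in HP. The platelet chemokine gene Pf4, the integrin gene Itgb3 and Gp1bb, a partner of Gp9 in the same receptor, were the others.

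For surface and signalling genes of blood, 9 of 136 bins were higher in HP (6.62%, against 2.39% of all bins) and 2 in HE2 (1.47%, against 2.19%). Their median log2 ratios were -0.21 and -0.32. Laptm5, a lysosomal membrane protein of leukocytes, held 3 of the 9, and its bin at -20.9 kb had 7.79 and 5.41 in HP against 2.05 and 2.41 in HE2. Inpp5d, Cd44, Lyn, Lcp1 and Rac2 had 1 each. Both bins on the HE2 side were near Lcp2, an adaptor of platelet and lymphocyte signalling, and reached 16.1 and 16.9 in HE2 against 5.73 and 6.96 in HP at -36.2 kb. This list's count on the HP side depended on scaling, and was 5 with each vector's ratios centred on their median and 4 with TMM factors. Of 41 bins of myeloid genes 1 was higher in HP, near Ncf1 of the phagocyte oxidase, and 1 in HE2, near Csf1. Each is 2.44%, close to the shares of all bins.

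**Figure D2:**
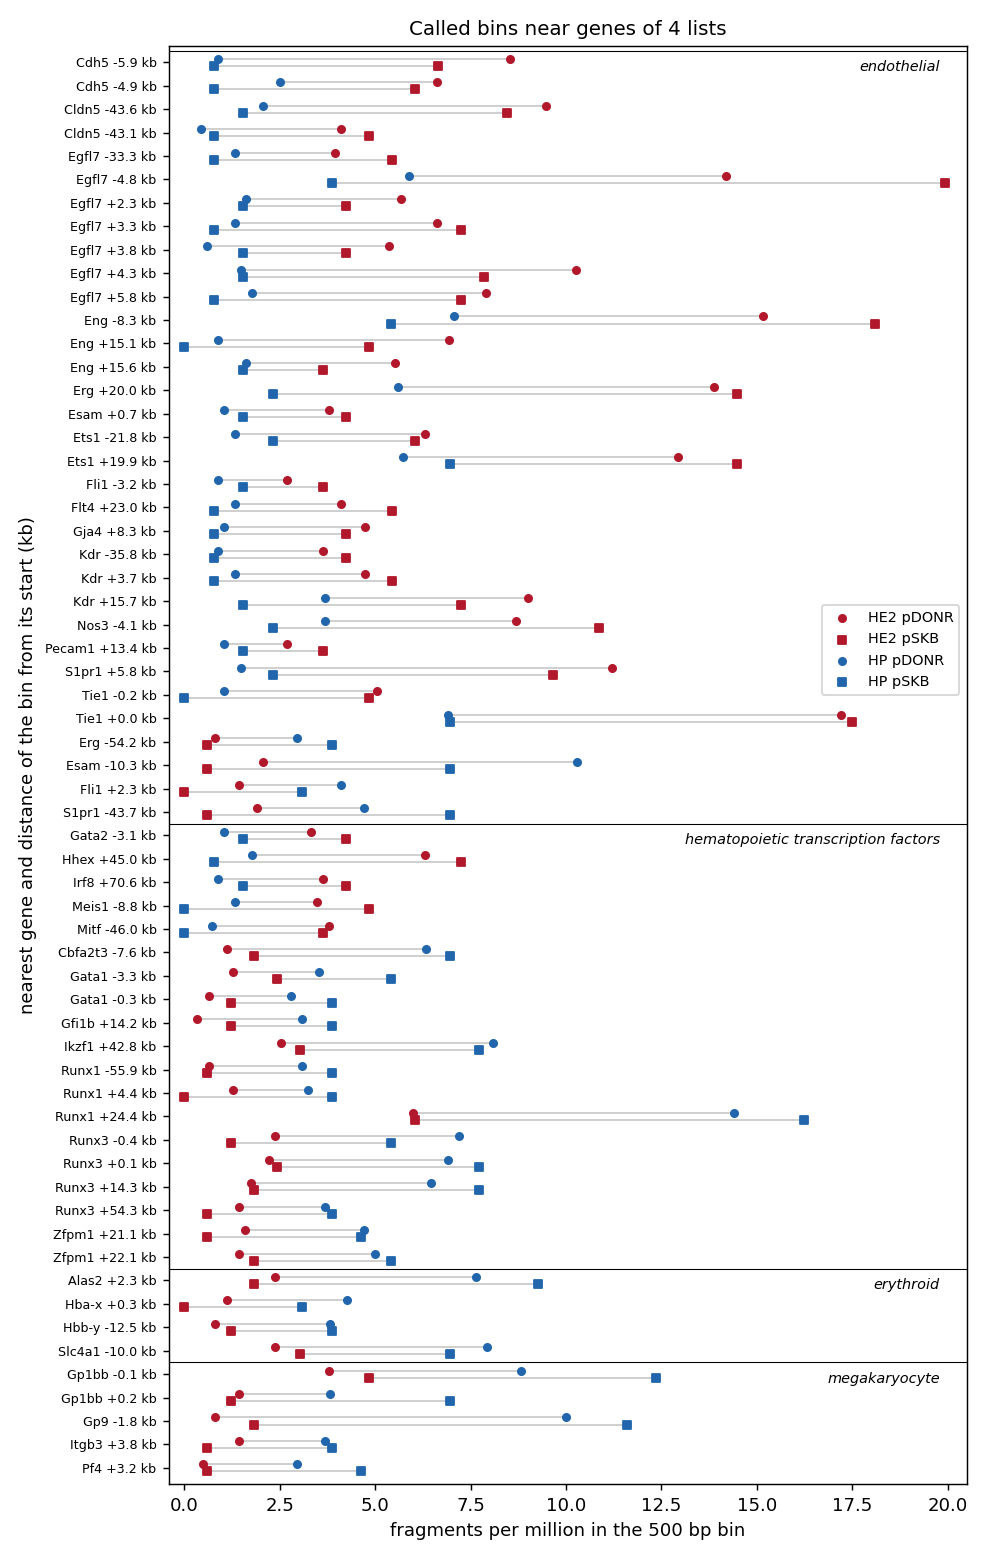
Level in FPM (x axis) in HE2 (red) and HP (blue) for the called bins of 4 gene lists, with circles for pDONR and squares for pSKB and lines joining the stages within a vector (the Gata1 bins stand once, under transcription factors, and the Rab27b bin of the megakaryocyte list and some erythroid bins are not drawn). In the endothelial panel HE2 is to the right in 29 bins and HP in 4, and in the erythroid panel HP is to the right in every bin drawn.

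The genes of the surface proteins used in the sort were read in the same way. Tek, which encodes TIE2, had 4 bins and none was called. The bin at its start had 6.0 and 6.64 in HE2 against 4.41 and 3.87 in HP. Of its other bins 1 leaned to HE2 in both vectors, 1 to HP in both, and in 1 the vectors disagreed. Kit, positive in both stages, had 4 bins and Itga2b, which encodes CD41, had 5, and none was called by size, though edgeR called the Kit bin 0.295 kb inside the gene (8.84 and 12.7 in HE2, 14.8 and 14.7 in HP, adjusted p = 0.0304). The start of Itga2b was among the more open sites, with 41.0 and 39.8 in HE2 and 49.2 and 48.7 in HP. Mecom, a transcription factor gene of hemogenic endothelium, had 7 bins, of which the highest had 21.5 and 21.7 in HE2 and 18.1 and 24.7 in HP, so the order differed between vectors. All 7 lay within 5.52 kb of a start, and the distal enhancer that the paper deleted was not among them.

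AP-1 factors respond to growth signals, and TEAD factors with the coactivator YAP to cell shape and adhesion. Of 180 bins of these genes 6 were higher in HE2 (3.33%) and 4 in HP (2.22%), against 2.19% and 2.39% of all bins, and the median log2 ratios were 0.09 and 0.05. EdgeR called 18 of the 180 higher in HE2 and 5 in HP, where its shares of all bins were 4.16% and 5.48%. On the HE2 side were Tead1 with 2 bins, Atf3, Fosl2, Junb and Amotl2. Tead1 had 7.57 and 9.05 in HE2 against 1.18 and 3.09 in HP at 64.3 kb. Atf3 had 16.2 and 11.5 at its start in HE2 against 6.47 and 5.41 in HP. Fos had 2 bins higher in HP and Ccn1 and Tead4 had 1 each.

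Other cell types were read from 6 further lists. No bin of 41 near genes of liver and gut endoderm and none of 29 near lymphoid genes was called. Of 70 neural bins 3 were higher in HE2 (4.29%, against 2.19% of all bins) and none in HP, but with fragments of at least 2 reads these counts were 1 and 3. Of 35 smooth muscle and mesenchyme bins 2 were higher in HE2 (5.71%) and 1 in HP (2.86%, against 2.39% of all bins), and 2 and 4 with such fragments. Pluripotency genes had 1 (1.56%) and 2 (3.12%) of 64, and mesoderm and cardiac genes 2 and 2 of 112 (1.79% each). The summed level of the smooth muscle list was 119.3 and 135.8 FPM in HE2 and 131.7 and 139.1 in HP. Their part in the results was not tested.

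The regions with the largest differences were mostly distal and, Gp9 apart, near genes of none of the lists. Among 241 regions higher in HE2 whose highest bin had a mean of 5 FPM or more, the one near B9d1 had 9.63 in HE2 pDONR and 11.5 in HE2 pSKB against 0.294 and 0.773 in HP. The next were intronic in Rhbdf2, a regulator of growth factor shedding, with 9.78 and 14.5 against 1.18 and 1.55, and intergenic at 195947 bp from the start of Mtx2, with 10.3 and 11.5 against 1.32 and 1.55. Parvb, an adaptor of integrin adhesion, had 9.47 and 9.05 against 1.32 and 0.773. Of the 12 regions named on this side, 11 were distal. Among 276 regions higher in HP, the intronic one of Spns2 was the most different by the smaller of its ratios, with 36.2 and 44.8 in HP against 6.0 and 4.83 in HE2. Its ratio was 6.03 in pDONR (95% interval 4.27 to 8.72) and 9.28 in pSKB (4.41 to 22.5). Igsf3 at -22.3 kb had 10.1 and 12.4 in HP against 0.947 and 1.81 in HE2, and Ackr3, a chemokine receptor, had 10.7 and 15.5 against 1.58 and 1.81. Zbtb16 had 16.2 and 20.1 in HP against 3.16 and 2.41 in HE2. Among the others were Ubp1, Ahdc1, Mrm1, Pgpep1l, Snx5, Acaca and Gm26727. Naming by nearest start does not show which gene a site serves.

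The lists of ES cells, of FLK1+ hemangioblast cells (HB) and of HE1 had no part in the calls. Bins higher in HE2 were at their highest in HE1. In the order ES, HB, HE1, HE2, HP, their median was 1.07, 1.29, 6.37, 4.73 and 1.32 FPM in pDONR, and 1.19, 1.54, 6.38, 5.43 and 0.773 in pSKB. Bins higher in HP were low at every earlier stage, with medians of 0.713, 0.968, 1.14, 1.42 and 4.41 in pDONR and 0.597, 1.03, 1.16, 1.21 and 5.41 in pSKB. Over all 63153 bins the medians moved less, from 3.57 in ES to 4.56 in HP in pDONR. The HE1 level was nearer to HE2 than to HP in both vectors in 86.1% of the bins higher in HE2 and in 82.3% of those higher in HP. On the HP side this was also so of ES, in 78.1%, and HB, in 73.6%, whereas on the HE2 side ES was nearer to HE2 in 18.8% and HB in 19.5%. Over all bins HE2 pDONR correlated with HE1 pDONR at r = 0.921 and with HP pDONR at r = 0.885, on log2 levels. Single genes followed these courses. The Cdh5 bin had 0.892, 1.77, 15.6, 8.52 and 0.882 FPM in pDONR from ES to HP, and the Gp9 bin had 0.178, 0.323, 0.682, 0.789 and 9.99. Exceptions were bins that were open early. The bin in an intron of Runx3, 14.3 kb downstream of the nearest start, had 15.3 and 18.5 in HB, 1.74 and 1.81 in HE2 and 6.47 and 7.73 in HP. Another, at -43.7 kb from S1pr1, had 15 and 18.5 in HB.

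**Figure D3:**
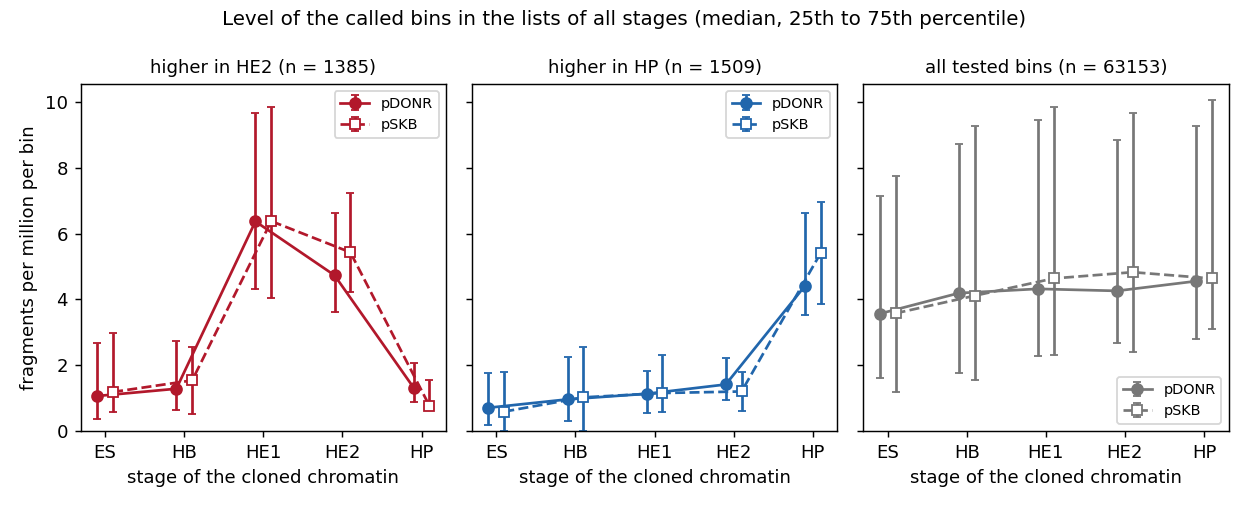
Level in FPM per bin (y axis, median with 25th to 75th percentile over bins) at each stage of differentiation (x axis) for called bins and all tested bins, with filled circles for pDONR and open squares for pSKB. The bins higher in HE2 peak in HE1 at 6.37 and 6.38 and the bins higher in HP stay at or below 1.42 until HP.

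The called bins were mostly distal, that is more than 1.5 kb from any annotated start. Distal bins made up 84.0% of those higher in HE2 and 80.6% of those higher in HP, and 41.9% of all tested bins. Of 36697 promoter bins 0.602% were higher in HE2 and 0.798% in HP, and of 26456 distal bins 4.40% and 4.6%. Promoter bins were the more open, with a median of 6.56 against 3.18 FPM, so distal bins were measured with fewer fragments. The median GC content of distal bins was 50.6% on the HE2 side, 51.0% on the HP side and 52.4% over all.

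Sequence, which had no part in the calls, divided the distal bins. SOX letters were in 39.1% of the 1164 distal bins higher in HE2, in 18.8% of the 1216 higher in HP and in 20.1% of all 26456. AP-1 letters were in 32.8%, 16.4% and 18%, and TEAD letters in 13.3%, 6.25% and 7.53%. On the HP side GATA letters were in 41.7%, against 25.9% on the HE2 side and 23.6% of all, and RUNX letters in 53.7%, against 31.7% and 38.8%. The share of RUNX letters in bins higher in HE2 was thus below that of all distal bins. GATA and RUNX letters stood together in 22.3% of the distal bins higher in HP, 8.42% of those higher in HE2 and 9.83% of all. SOX and ETS letters stood together in 1.15%, 4.12% and 1.63%.

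Other motifs separated the stages less. RBPJ letters (TGGGAA), bound by the nuclear effector of Notch, were in 49.1% on the HE2 side, 37.3% on the HP side and 42.5% of all. ETS letters were in 10.7%, 6.83% and 10.2%, and PU.1 letters (GAGGAAGT) in 7.73%, 9.79% and 7.18%. E-box letters (CAGNTG) were in 78.6%, 83.2% and 79.6%. CTCF letters (AGGGGGCG) were rarer in both called sets, with 1.72% and 1.89% against 4.06%. For SOX, AP-1, TEAD, GATA, RUNX, RBPJ and ETS letters the order of the stages was the same on both sides of the median GC content of distal bins. For PU.1 letters it turned, with 7.24% on the HE2 side and 10.8% on the HP side at less GC and 8.56% and 8.06% at more. In the part with less GC, SOX was in 43.7% on the HE2 side and 21.1% on the HP side and GATA in 31.8% and 47.6%, and in the part with more GC they were in 31.2% and 14.8% and in 15.7% and 32.0%. These letters overlap in part between motifs and are a description, with no test and no evidence of binding.

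**Figure D4:**
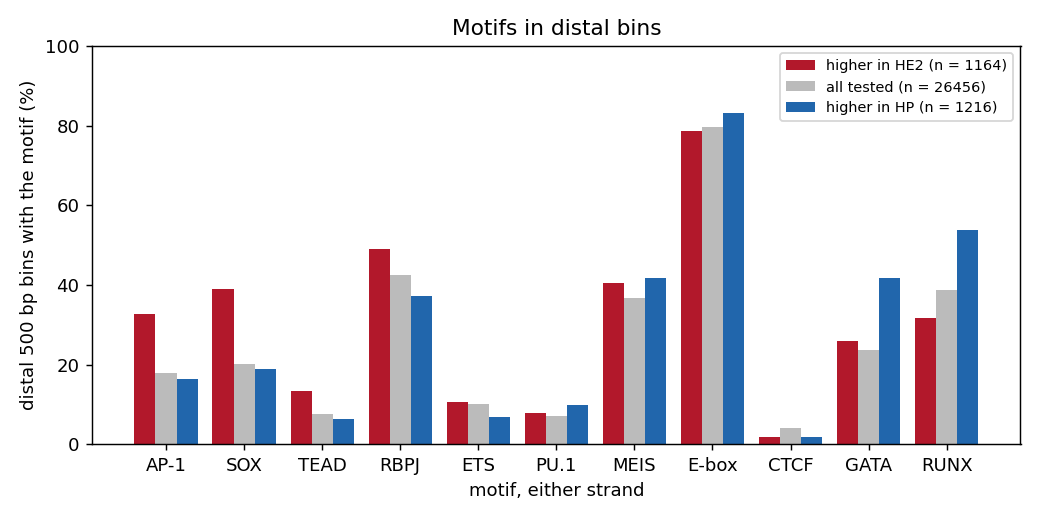
Percent of distal 500 bp bins (y axis) that hold the letters of each motif (x axis) among bins higher in HE2 (red), all tested distal bins (grey) and bins higher in HP (blue). SOX, AP-1 and TEAD are most frequent on the HE2 side, and GATA and RUNX on the HP side, where they reach 41.7% and 53.7%.

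The called bins were then looked up among fragments recovered from sorted reporter cells, whose lists the calls did not use. The authors kept such a fragment only if the plasmid libraries held the identical one and it lay in open chromatin. This readout is thus not independent of the cloned lists, nor of how open a site was. ES cells carried the pooled reporters, with fragments in front of the HSP68 minimal promoter and a Venus-YFP gene at the Hprt locus, were differentiated, and were sorted at each stage by YFP in 5 replicates. Of the fragments of YFP-positive HE2 cells, 2.09%, 1.86%, 2.00%, 0.696% and 1.93% lay in bins higher in HE2, in replicates 1 to 5. In YFP-positive HP cells it was 1.08%, 1.07%, 0.953%, 0.463% and 0.556%. Every replicate was lower in HP than the same-numbered one in HE2, and the groups overlapped through HE2 replicate 4. In bins higher in HP lay 0.435%, 0.446%, 0.438%, 0.737% and 0.193% of the HE2 fragments and 0.599%, 0.571%, 0.607%, 0.856% and 0.868% of the HP fragments.

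As a log2 ratio of fragments in bins higher in HP to fragments in bins higher in HE2, positive cells had -1.91 ± 1.19 in HE2 and -0.18 ± 0.86 in HP (SD, n = 5). The difference of 1.73 was in the same direction in 5 of 5 same-numbered pairs but missed the 0.05 threshold once both tests were counted (p = 0.0317, adjusted p = 0.0635, two-sided and exact over all regroupings). With bins called 4-fold in both vectors, 126 and 87 bins, the difference was 4.23 (exact permutation test, adjusted p = 0.0159), and with edgeR bins 0.76 (exact permutation test, adjusted p = 0.0476). With only the High and Medium-High gates it was 1.03, in 4 of 5 pairs (exact permutation test, adjusted p = 0.159). Cells of the YFP-negative gate (Negative) differed by 1.03 in the same direction, in 4 of 5 pairs (exact permutation test, p = 0.159, adjusted p = 0.159), and without replicate 3 by 0.55. Whether positive and Negative cells differed in this was not tested. The authors kept only fragments within open chromatin peaks, and no source used here states whether these were peaks of the same stage. The part of that filter in the difference was not tested. Replicates 3 to 5 listed as few as 720 fragments, and their ratios rest on as few as 1 fragment in a class. In positive cells the fewest were 3, in bins higher in HP in HE2 replicate 5. The 4-fold bins are a part of the called bins, so their ratios rest on no more fragments than these.

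**Figure D5:**
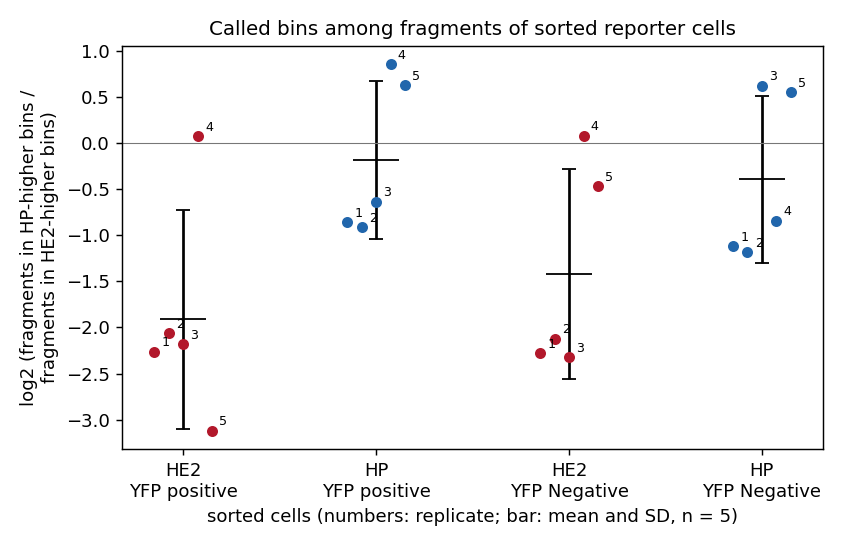
Log2 ratio of fragments in bins higher in HP to fragments in bins higher in HE2 (y axis) for each replicate of YFP-positive and Negative sorted cells (x axis), with mean and SD (n = 5). Positive HE2 cells average -1.91 and positive HP cells -0.18, and HE2 replicate 4 lies at 0.08.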

How the data were processed

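Tn5 fragments of each stage were cloned and sequenced by the authors on NextSeq 550 and NovaSeq instruments. Per the labels and methods the reads were trimmed with Trim Galore, mapped to mm10 with Bowtie2, filtered with SAMtools and turned by bedtools into 1 interval per pair. The plasmid lists were deposited as intervals with a count of reads each, without normalization. For sorted cells the authors gave interval positions only, already filtered against HM-1 controls, plasmid fragments and peaks. They carry no read count, unlike the plasmid lists. PCR and cloning can lose fragments and counts of distinct fragments can saturate at open sites, which would lower large ratios. No library carried a molecular identifier. Intervals cover counting error only and were read in bins chosen by the same counts.

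Distinct fragments were counted per 500 bp bin by midpoint and divided by the total of the list. A level of 2 FPM (fragments per-million of the list) is 12.7 to 13.6 fragments in pDONR and 2.59 to 3.31 in pSKB, so pSKB ratios are coarse. Genes were taken from GENCODE vM21 by the nearest start of a protein-coding transcript. Distances are to that start, so bins of the same gene can be measured from different starts. Regions are called bins merged where adjacent, and up to 12 per direction were named by the smaller of their 2 ratios. All called bins of 8 gene lists could be named. Letters of 15 motifs were searched in GRCm38. Starts of sorted fragments were moved by 1 bp to the scale of the plasmid lists, and the printed windows were chosen after values were seen. The difference between stages was tested with edgeR 4.0.16 (quasi-likelihood) in R 4.3.3, with vector as a term and Benjamini-Hochberg adjustment. Library sizes were set to list totals. The error term is how far the vectors disagree on the stage difference. DESeq2 1.42.0 was an alternative, and the others were limits on level and fold, scaling, reads and bin position. Sorted cells were compared by exact permutation over 252 regroupings. On simulated counts of 63153 bins for this comparison edgeR recovered 43 of 100 bins changed 2-fold and 98 of 100 changed 4-fold, with 1 false call. The simulated lists were drawn independently, whereas pSKB is a resampling of pDONR. The simulation therefore cannot give the rate of false calls in the real lists. The members and gene lists were chosen with earlier results of these data known. Some called bins are counted but not reported by name here.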

Additional observations from a re-analysis of the deposited data

Results flagged for a closer look

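Of 18 sets of 5 replicate values examined in the sorted cells, 4 held a value far from the other replicates. For a single set chance gives about 1 in 20. The sets share fragments, and the measures derive from the same counts, so 4 of 18 cannot be set against that rate. YFP-positive HE2 cells of replicate 4 had 0.696% of their fragments in bins higher in HE2. The High gate of HE2 replicate 3 had 0.818% in bins higher in HP. Negative HP cells of replicate 3 had 0.254% in bins higher in HE2, and those of replicate 5 had 1.47% in bins higher in HP. These libraries listed 2443, 1344, 1969 and 818 fragments.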

How the results depend on the processing

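The number of called bins moved with the limits set. Higher in HE2 and in HP were 3482 and 3891 bins at a minimum of 1 FPM, 249 and 284 at 5, 3607 and 4894 at 1.5-fold, and 17966 and 24470 by direction alone. With reads in place of distinct fragments they were 7505 and 7381, and with all lists drawn down to the smallest total 2327 and 2728. With 1 FPM added in place of 0.5, 991 bins were higher in HP. From a single vector the count ran from 2251 (pDONR, without pSKB) to 6579 (pSKB, without pDONR) in HE2 and from 2452 to 9001 in HP. The other alternatives for these counts stayed within 1.5 times, though centring and TMM turned the balance from 47.9% on the HE2 side to 55.8% and 56.8%. Among them, leaving out pSKB fragments found in the pDONR list of their stage, chosen after seeing the data, gave 1049 and 1551, of which 748 and 895 were called before. EdgeR gave 982 and 1704 bins at 5 FPM, 4095 in HE2 at 1 FPM, and DESeq2 gave 7 and 12, with 28161 adjusted p-values not set. With no replicate block, that is without the vector term, edgeR gave 2453 and 2781. In sorted cells the difference was 4.23 with 4-fold bins and 0.76 with edgeR bins, both past the threshold in positive cells, and 1.03 with the High and Medium-High gates alone, which was not. Without single replicates it ran from 1.22 to 1.97 in positive and from 0.55 to 1.52 in Negative cells. With the replicate number as a block it was 1.73 in positive cells (exact sign-flip test, adjusted p = 0.125, where the smallest raw p is 0.0625) and 1.03 in Negative cells. The main test did not take the numbers as pairs. Same-numbered sets correlated at 0.03 to 0.31, and 3 of 5 sets of each stage were closest to their own number. Across numbers, HE2 set 1 and HP set 2 correlated at 0.23, and HE2 set 2 and HP set 1 at 0.27. Counts of same-numbered pairs are thus a description. The cause of these shifts was not tested. In pSKB, where 1 fragment is 0.603 or 0.773 FPM, low levels rest on a few fragments, and 61 of 71 named bins higher in HE2 and 48 of 62 higher in HP had 3 or fewer in the lower stage.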

Other observations

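Some called bins lay near genes of lists from other tissues. The bin nearest to Dlx2, a homeobox gene of neurons, lay 97496 bp upstream and had 10.7 and 13.9 FPM in HE2 pDONR and pSKB against 2.94 and 3.09 in HP. Near Tbx5, a cardiac transcription factor gene, the level was 6.47 and 4.83 in HE2 against 2.65 and 0.773 in HP. At the start of Tfcp2l1, a pluripotency factor gene, it was 7.35 and 9.28 in HP against 2.84 and 3.62 in HE2, and 4.52 and 8.23 in HB.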
